A study of Rattus norvegicus with 24 samples.

Results

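The comparison set colonic tumours against normal distal colon in rats heterozygous for a mutation of Apc, a tumour suppressor gene, that received no irritant. Its members are the 12 arrays, of 24 in all, that are labelled as control tumour or control normal colon at 97 days. They come from 5 untreated rats, numbered 2, 3, 4, 8 and 10, and each rat gave both tissues. Every rat of the study was a male (ACIxF344)F1-Pirc hybrid of genotype Apc-Pirc/+, so the normal colon carries the Apc mutation as well. The other 12 arrays come from 5 rats of the same strain and genotype, numbered 1, 5, 6, 7 and 9, which drank 4% dextran sodium sulfate (DSS) on days 40 to 47 and again on days 54 to 61. Food and water were given freely under 12 hours of light and 12 hours of dark, and all tissue was taken at 97 days of age. The normal colon of rats 2 and 3 was measured on 2 arrays each, which were averaged, so that the rat was the replicate and each group held 5 rats. Each array compared the sample with a common reference made from normal colon of Apc wild-type rats of several ages, and all values are log2 of sample over that reference. A value of 0 therefore means a normalized signal equal to that of the reference, and a tumour minus normal difference of 1 means a 2-fold higher level in the tumour. There were no dye swaps, so a value against the reference can hold a dye effect of the probe. Ratios of dim probes are narrowed towards 0, so a value near 0 need not mean the level of wild-type colon.

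The Pirc rat is a model of familial adenomatous polyposis in which loss of the remaining Apc copy starts adenomas of the small intestine and colon. The Apc protein holds beta-catenin in a destruction complex. When it is lost, beta-catenin enters the nucleus with TCF and LEF factors and switches on Wnt target genes that normally mark the base of the crypt. The colonic surface is otherwise covered by absorptive cells that recover salt and water, by mucus-secreting goblet cells and by scattered hormone cells.

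On 10 of the 12 arrays 52.9% to 70.5% of Cy3 (sample) signals were well above background. The share was 95.2% on the first array of rat 2 normal colon and 89.7% on the array of rat 4 normal colon, which are called the raised arrays below together with the tumour of DSS rat 9. Rats 2, 3 and 4 were measured in slide lot 1 and rats 8 and 10 in slide lot 2, which was also a separate scan day. Of 26436 features tested, 4758 (18.0%) passed the threshold of an adjusted p under 0.05 in limma with Benjamini-Hochberg adjustment: 2267 were higher in tumours (8.58%) and 2491 lower (9.42%). Beyond 2-fold, 628 were higher and 712 lower. The median difference over all features was -0.002. The groups of 5 rats did not overlap for 12.4% of all features. In whole tissue, fewer cells of a type and less RNA per cell cannot be told apart. Without rat 8 the number of called features was 2621, of which 2597 were among the 4758. Rat 8 had the widest tumour minus normal differences, with medians of 0.92 over the features called higher and -0.97 over those called lower. Rat 2 had the narrowest, at 0.40 and -0.47. Its single tumour array had a median absolute log2 ratio of 0.0338, against 0.171 to 0.181 on the other untreated tumour arrays. The repeat arrays of its normal colon correlated at 0.81, against 0.97 for rat 3. The median absolute log2 ratio was 0.0132 on the array of rat 10 normal colon, against 0.104 to 0.198 on the other untreated normal arrays. Whether the narrow differences of rat 2 come from its arrays was not tested.

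The mutated gene was looked at first. Apc read 0.24, 0.40, 0.25, 0.51 and 0.05 in the normal colon of rats 2, 3, 4, 8 and 10, and 0.19, -0.14, 0.11, 0.17 and -0.30 in their tumours. The groups overlapped, and the difference of -0.28 ± 0.13 (standard error of the model, as for every difference that follows) did not pass (adjusted p = 0.157), although all 5 tumours were lower than the normal colon of their rat. Without the raised arrays Apc passed on this probe (adjusted p = 0.0341). The other Apc probe gave a smaller difference in limma, -0.11 ± 0.16, which missed the threshold by far (adjusted p = 0.754). A fall of Apc thus rests on 1 of its probes. The probe read in each rat measures the transcripts of both alleles together, so it does not show which allele was lost. Of 18 measured genes of the Wnt signal transduction machinery, 0 rose and 2 fell, with a list median of 0.01. That is 11.1% called, against 18.0% of all features. With rat as a block 2 rose and 3 fell. The 2 that fell without a block were Axin1 at -0.57 and Fzd5 at -0.31. Neither passed once rat 4 or rat 8 was left out (adjusted p = 0.089 and 0.088 for Axin1, 0.0509 and 0.0601 for Fzd5). Fzd5 also did not pass without rat 2 or rat 3 (0.0849 and 0.0871). Ctnnb1, which encodes beta-catenin itself, had 0.49 ± 0.24 and did not pass (adjusted p = 0.194, and 0.0483 with rat as a fixed block).

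Among the 15 largest increases were a matrix protease, a defensin, enzymes of arginine metabolism, a neutrophil chemokine and proteins of epithelial remodelling. Among the 15 largest decreases were the chloride exchanger of the colonic surface, gluconeogenic enzymes, an aldosterone-induced kinase and retinoid and xenobiotic enzymes. The rule that chose them asked for the same direction in all 5 rats. The array probes that carry the leading pair in each direction are printed here as deposited, without capitals because no stretch is singled out.
Mmp7: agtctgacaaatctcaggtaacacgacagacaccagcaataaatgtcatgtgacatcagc
Defa6: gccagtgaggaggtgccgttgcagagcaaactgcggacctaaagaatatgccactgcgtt
Cmahp: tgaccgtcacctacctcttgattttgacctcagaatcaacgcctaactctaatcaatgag
Slc26a3: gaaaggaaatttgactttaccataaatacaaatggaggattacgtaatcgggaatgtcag

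Mmp7, a protease that cleaves matrix and activates defensins, read -0.31, -0.70, -0.27, -0.10 and -0.07 in normal colon and 4.54, 4.88, 5.09, 5.90 and 5.92 in the tumours of rats 2, 3, 4, 8 and 10 (5.56 ± 0.33, adjusted p = 1.8e-08). Its probe was saturated on 2 of 5 tumour arrays, and that of Defa6 on 1, so their tumour levels may be understated. All 5 tumours stood far above the wild-type pool, and no normal sample stood above it. Defa6, a defensin of Paneth cells, read from -0.48 to 0.35 in normal colon and 4.18, 4.67, 3.41, 5.57 and 5.49 in tumours (4.70 ± 0.39, adjusted p = 8.69e-07). Rat defensin genes have near-identical relatives, so this probe may read more than 1 of them. Tm4sf1, a membrane protein of migrating cells, read -0.03, -0.50, -0.47, -0.34 and 0.06 in normal colon against 3.31, 3.64, 5.42, 4.02 and 4.15 in tumours (difference 4.36 ± 0.47, 20.6-fold, adjusted p = 8.88e-06). Tgm2, a protein cross-linking enzyme, read well below the wild-type pool in normal colon, at -2.40, -3.78, -2.80, -3.80 and -2.12. It reached 1.0, 0.03, 1.83, 2.51 and 0.79 in tumours (4.21 ± 0.39, adjusted p = 2.08e-06). Fabp5, a fatty acid carrier of squamous and proliferating epithelium, behaved alike: -3.59, -3.75, -3.89, -1.79 and -2.90 in normal colon, 0.50, 0.25, 1.03, 1.76 and 1.24 in tumours (4.14 ± 0.43). For Tgm2 and Fabp5 the normal colon lay below the wild-type pool in all 5 rats and no tumour did. Gbp2, an interferon-induced GTPase, rose by 4.15 ± 0.33 (17.7-fold), the serine protease gene Prss22 by 4.05 ± 0.43 and Armh4 by 4.28 ± 0.42. Wfdc21 rose by 3.82 ± 0.51 (14.2-fold), with 4.42 in the tumour of rat 8 against 1.15 in that of rat 2.

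Cmahp, a gene of sialic acid metabolism, read -0.47, 0.08, -0.01, -0.61 and -1.11 in normal colon and -4.21, -5.35, -5.25, -6.07 and -6.01 in tumours (-4.95 ± 0.32, adjusted p = 4.09e-08). All 5 tumours were far below every normal sample. Pck1, the first committed enzyme of gluconeogenesis, read 0.35, -0.55, 0.05, -0.32 and 0.02 in normal colon and -2.03, -4.11, -3.70, -4.53 and -4.72 in tumours (-3.73 ± 0.47, 13.2-fold lower, adjusted p = 4.03e-05). Fbp1, which acts later in the same pathway, read -0.04, -0.09, -0.14, 0.09 and -0.14 against -1.75, -3.70, -3.35, -4.94 and -3.75 (-3.43 ± 0.43). The normal values of Fbp1 lay close together, and the tumours lay far outside them. Fmo2, a flavin monooxygenase, fell by 3.39 ± 0.56 on the log2 scale and the trypsin inhibitor gene Spink1 by 3.37 ± 0.49. Second probes gave smaller falls, with -1.32 ± 0.28 for Fbp1 and -0.29 ± 0.07 for Spink1. That Spink1 probe was well above background on 0 of 5 tumour arrays. Selenbp1, a selenium-binding protein of differentiated epithelium, fell by 2.99 ± 0.35 and the brush border peptidase gene Mep1a by 3.15 ± 0.70. In each of these genes the tumour of rat 2 was the least reduced of the 5. The ratios on its array had a narrow spread, as given above. With arrays scaled to equal spread, the genes of this and the preceding paragraph that no longer passed were Defa6, Tgm2, Fabp5, Cmahp, Mep1a and Selenbp1. That scaling multiplied the ratios of the array of rat 10 normal colon by 9.68 and those of the rat 2 tumour by 3.79.

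**Figure D1:**
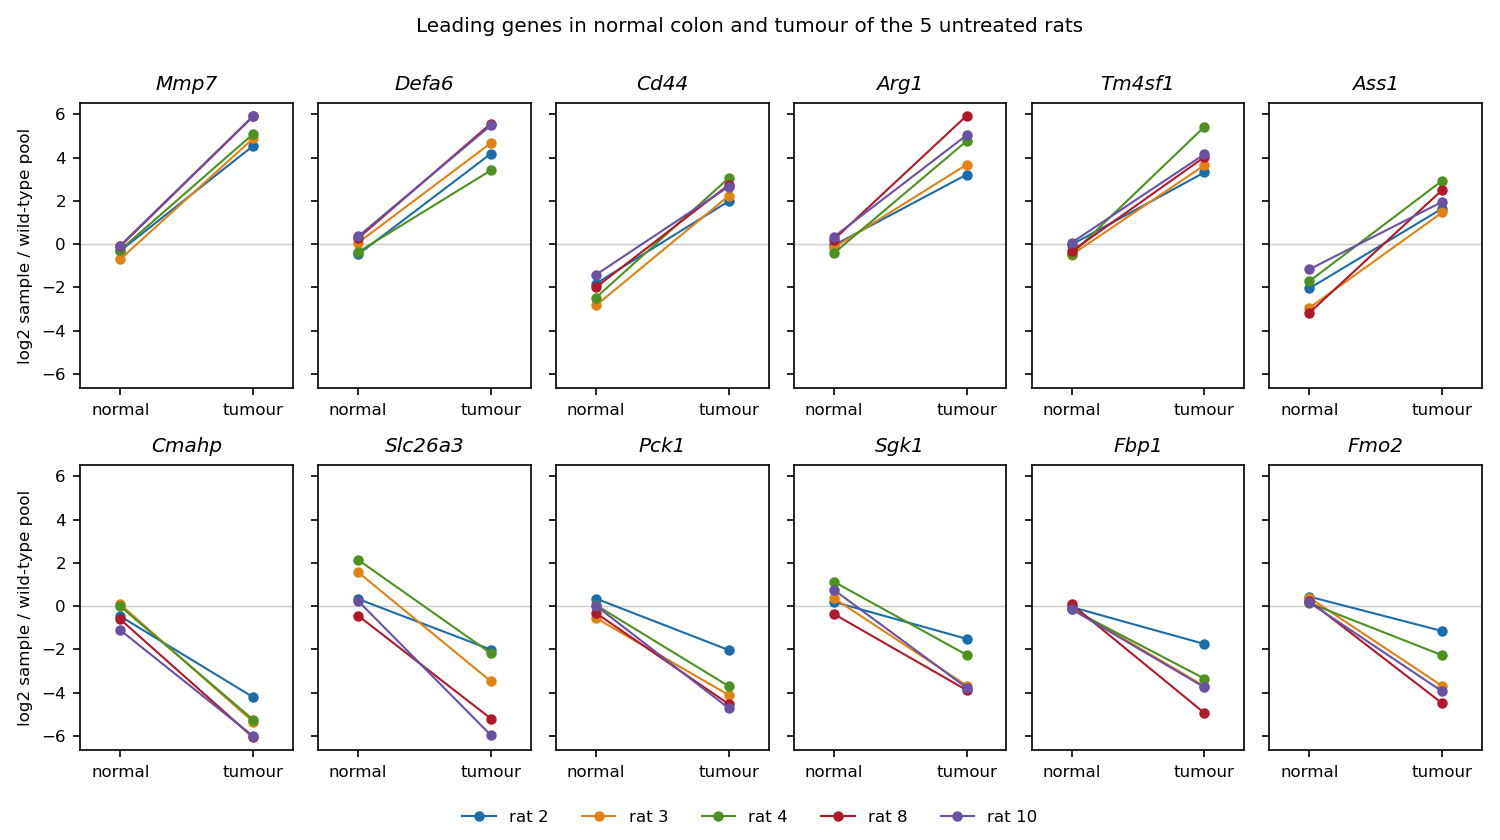
Log2 ratio of sample over wild-type colon for 6 of the largest increases (top) and 6 of the largest decreases (bottom) in normal colon and tumour; each line joins the tissues of 1 of 5 untreated rats. All lines of a panel run the same way, and for Slc26a3 the tumours of rats 8 and 10, at -5.20 and -5.97, lie below those of the other 3 rats.

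The genes were then read by function, in 30 lists with 672 genes, of which 641 were on the array and 613 had a probe that passed the filter on dim spots. Of those 613, 150 rose and 101 fell, against the 18.0% called among all features. Medians of lists are given on the log2 scale beside the median of -0.002 over all features. The list medians kept their sign within both lots for 24 of the 30 lists, with any 1 rat left out for 23 and with arrays scaled to equal spread for 24.

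**Figure D2:**
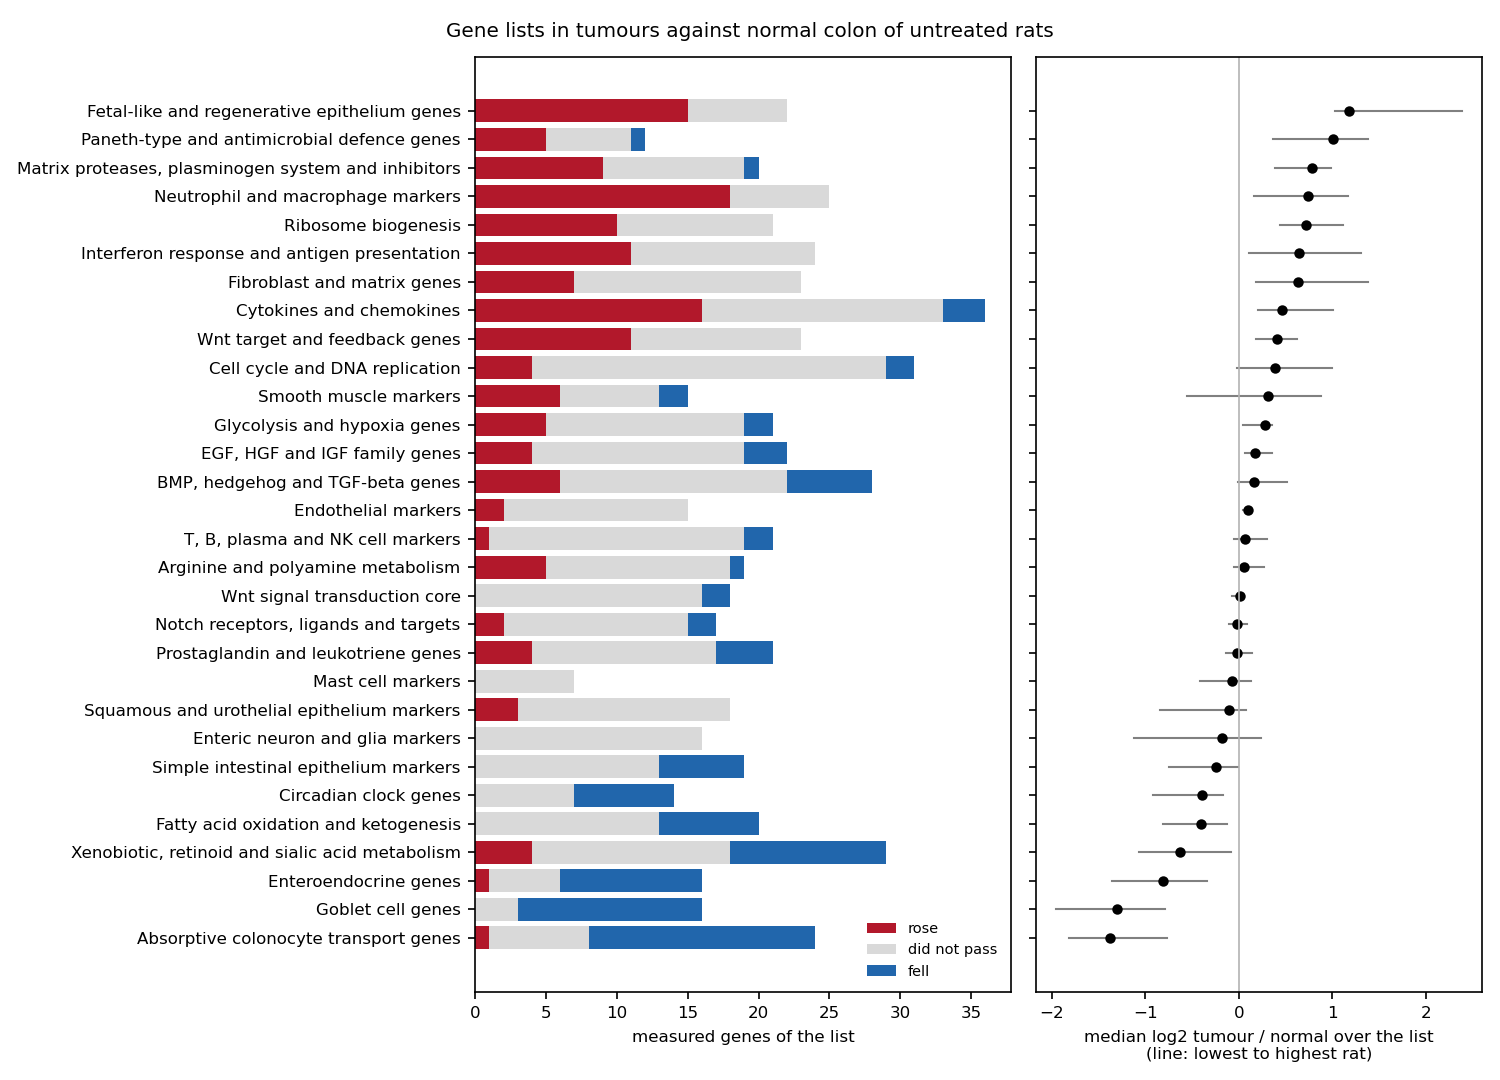
Left, the number of measured genes of each of 30 lists that rose, fell or did not pass in tumours against normal colon of untreated rats; right, the median log2 tumour over normal of the list (point) and the lowest and highest of the 5 rats' own medians (line). The regenerative epithelium list has the highest median, 1.18, and the absorptive colonocyte list the lowest, -1.38.

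Wnt target and feedback genes rose in part. Of 23 measured, 11 rose, 0 fell and 12 did not pass, with a median of 0.41. Without rat 4 or without rat 8, 9 rose, and with arrays centred on their median in place of loess 2 rose. Wif1, a secreted inhibitor that binds Wnt ligands, read -0.22, 0.07, 0.04, -0.37 and -0.04 in normal colon and 2.06, 3.11, 2.66, 3.91 and 2.89 in tumours (3.03 ± 0.34, 8.17-fold, adjusted p = 1.18e-05). Notum, an enzyme that inactivates Wnt ligands, was near the reference in all normal samples, from -0.05 to 0.03, and read 0.14, 1.01, 0.71, 1.69 and 0.62 in tumours (0.84 ± 0.21). Nkd1, a feedback inhibitor inside the cell, rose by 0.85 ± 0.16 with the groups overlapping. Axin2, the scaffold that beta-catenin itself induces, read 0.29, 0.35, 0.18, 0.27 and 0.02 against 0.44, 1.03, 1.92, 1.62 and 1.08. Its difference was 1.0 ± 0.24 (adjusted p = 0.00735), and the tumour of rat 2 was only just above the normal range. Thus 4 negative feedback genes of the pathway were among the 11 that rose.

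Transcription factors and growth regulators made up much of the remainder. Myc read 0.42, 0.51, 1.02, 1.21 and 0.21 in normal colon and 1.70, 2.56, 3.07, 2.13 and 2.47 in tumours (1.71 ± 0.29, 3.27-fold). Ascl2, a transcription factor of crypt-base stem cells, read 0.46, -0.24, -0.16, 1.09 and 0.44 against 1.53, 2.03, 1.27, 2.17 and 2.33 (1.55 ± 0.30). Ccnd1, which encodes the G1 cyclin D1, rose by 0.64 ± 0.12 and Sp5, a Wnt-induced repressor, by 0.54 ± 0.13. Their second probes did not pass, at 0.83 for Ccnd1 (adjusted p = 0.121) and -0.01 for Sp5 (0.94). Not all stem cell targets moved with them. Lgr5, the receptor that marks crypt-base stem cells, had 0.19 with a 95% interval of -0.23 to 0.60, which spans 0. Rnf43, Ephb2, Sox9 and Sox4 did not pass, at 0.23, 0.25, 0.07 and 0.66.

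The promoters of Axin2, the standard Wnt reporter, and of Mmp7, the largest increase, are printed because both hold the TCF site letters CTTTGAT. Each is 300 bases of RefSeq's GRCr8 assembly, 250 before and 50 after the annotated start, read in the direction of the gene. Capitals mark CTTTGAT on either strand and, in Mmp7, the AP-1 letters TGANTCA. Axin2 lies on the plus strand at chr10:94398535-94398834 and Mmp7 on the plus strand at chr8:13132793-13133092.
Axin2: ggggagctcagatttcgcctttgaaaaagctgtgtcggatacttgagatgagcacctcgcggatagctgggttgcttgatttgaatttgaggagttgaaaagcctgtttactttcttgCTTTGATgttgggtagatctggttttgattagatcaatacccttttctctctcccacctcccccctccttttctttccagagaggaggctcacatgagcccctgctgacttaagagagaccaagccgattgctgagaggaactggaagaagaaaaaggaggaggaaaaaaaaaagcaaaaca
Mmp7: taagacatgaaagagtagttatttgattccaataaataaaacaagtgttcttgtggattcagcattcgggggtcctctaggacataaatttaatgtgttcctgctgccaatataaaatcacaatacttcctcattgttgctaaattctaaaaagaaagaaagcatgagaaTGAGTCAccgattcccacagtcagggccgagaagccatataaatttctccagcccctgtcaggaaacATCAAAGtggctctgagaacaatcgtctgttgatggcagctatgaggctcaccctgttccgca
In Axin2 the match begins 132 bases before the start. In Mmp7 the TCF letters begin 13 bases and the AP-1 letters 80 bases before it. Of 27457 rat promoters of this length, 3.62% hold CTTTGAT on either strand and 7.33% hold TGANTCA. A match describes letters only and says nothing of binding in these tumours.

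Proteases of the matrix and of the plasminogen system rose next to Mmp7. Of 20 measured, 9 rose, 1 fell and 10 did not pass (median 0.79). At least 9 rose with any 1 rat left out, and 14 with rat as a block. Under median centring 6 rose, within lot 1 alone 5 and within lot 2 alone 7. Among untreated rats Mmp8 was well above background in tumours only, so it may have passed the filter through the tissue where it was high. The filter counted DSS arrays too. Without Mmp8, 8 of 19 rose. Plat, the tissue plasminogen activator, read 0.08, 0.09, 0.34, -0.29 and 0.14 in normal colon and 1.89, 2.13, 2.69, 3.03 and 2.44 in tumours (2.36 ± 0.26, 5.15-fold). The urokinase gene Plau was at -0.11 to 0.01 in normal colon and at 0.28, 0.72, 1.58, 1.70 and 1.65 in tumours (1.22 ± 0.27), and its receptor gene Plaur rose by 1.19 ± 0.23. Activators of plasminogen and the urokinase receptor were thus higher in tumours. Mmp12, the macrophage elastase, read 0.68, 1.43, 2.07, 2.91 and 3.27 in tumours and at most 0.30 in normal colon (1.97 ± 0.36). The membrane-bound protease gene Mmp14 rose by 1.36 ± 0.30 and the gelatinase gene Mmp9 by 0.64 ± 0.14. Timp4, a tissue inhibitor of metalloproteases, was the member that fell, from -0.34 to 0.52 in normal colon to -0.59, -1.42, -1.75, -1.92 and -1.59 in tumours (-1.63 ± 0.28), while Timp1 had 0.80 and did not pass (adjusted p = 0.225, and 0.00189 with rat as a fixed block).

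Several genes carry more than 1 probe, and the probes did not agree in size. The 2 probes of Cd44, an adhesion receptor and Wnt target, are printed first, followed by those of Cxcl14 and Igfbp4, where 1 probe rose and the other did not.
Cd44, first probe: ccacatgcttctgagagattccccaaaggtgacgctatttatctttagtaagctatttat
Cd44, second probe: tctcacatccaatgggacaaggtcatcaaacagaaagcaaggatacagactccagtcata
Cxcl14, first probe: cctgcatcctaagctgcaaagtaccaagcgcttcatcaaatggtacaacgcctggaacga
Cxcl14, second probe: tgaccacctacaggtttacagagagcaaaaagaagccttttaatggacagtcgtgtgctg
Igfbp4, first probe: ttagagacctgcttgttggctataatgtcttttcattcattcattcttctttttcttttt
Igfbp4, second probe: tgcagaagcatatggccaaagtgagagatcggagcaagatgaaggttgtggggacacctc
The longest run of letters that 2 probes of a gene share is 5 bases in these 3 genes, so each pair reads different stretches. The first Cd44 probe read -1.83, -2.84, -2.48, -2.0 and -1.42 in normal colon and 1.98, 2.23, 3.05, 2.74 and 2.66 in tumours (4.65 ± 0.25). The second read -0.02, -0.11, -0.04, -0.10 and -0.01 against 0.24, 0.68, 1.28, 1.48 and 1.37 (1.07 ± 0.21, adjusted p = 0.00149). Both probes of Cd44 rose in all 5 rats, and the second was well above background on 3 of 7 normal arrays and on 5 of 5 tumour arrays. Cxcl14, an epithelial chemokine, rose by 1.65 ± 0.27 on its first probe and had 0.00 ± 0.08 on its second, which was well above background on 1 of 5 tumour arrays. Igfbp4, a binding protein of insulin-like growth factors, rose by 2.05 ± 0.44 on its first probe and had 0.08 ± 0.12 on its second, which was well above background on all tumour arrays. S100a8 rose on all 3 probes, by 3.62, 1.06 and 1.06. Il1b had its wider rise on the dimmer probe, 3.35 ± 0.51 against 2.14 ± 0.30 on the probe that stands for the gene.

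**Figure D3:**
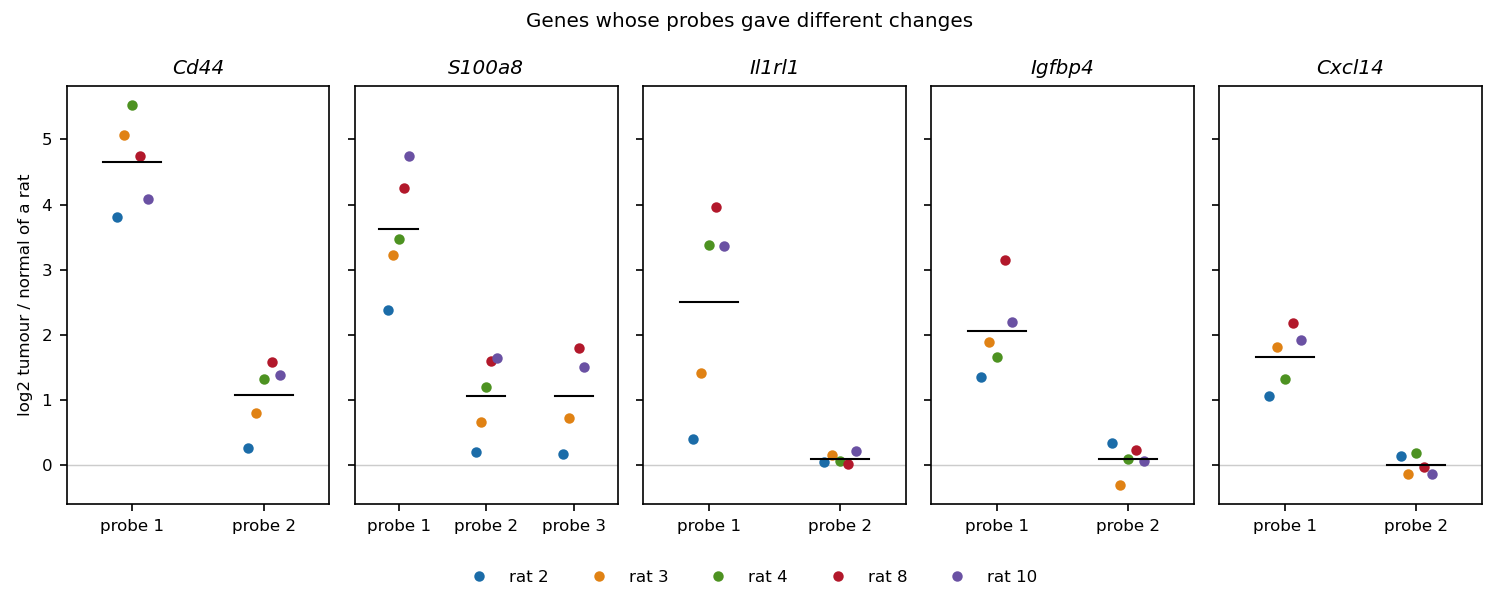
Log2 tumour over normal of each untreated rat (points) and the fitted difference (bar) for every probe of 5 genes. For Cd44 both probes lie above 0, while the second probes of Il1rl1, Igfbp4 and Cxcl14 lie near 0 in all 5 rats; the third S100a8 probe has no value in the tumour of rat 4.

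Genes of absorptive colonocytes fell together. Of 24 measured, 16 fell, 1 rose and 7 did not pass (median -1.38), and 14 fell without rat 3, 8 or 10. Slc26a3, which exchanges chloride for bicarbonate at the colonic surface, read 0.33, 1.57, 2.14, -0.44 and 0.24 in normal colon and -2.01, -3.48, -2.18, -5.20 and -5.97 in tumours (-4.54 ± 0.73, adjusted p = 0.000354). Atp12a, the colonic proton and potassium pump, read 0.56, 1.48, 2.28, -0.05 and 2.09 against -0.82, -1.13, -0.70, -2.51 and -2.83 (-2.87 ± 0.48, 7.31-fold lower). The tumours of rats 8 and 10 were the lowest for both. Aqp8, a water channel, fell by 2.13 ± 0.32 and Slc16a1, the importer of butyrate, by 1.42 ± 0.20.

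Several members of the absorptive list belong to the salt recovery that aldosterone controls in distal colon. Nr3c2, the mineralocorticoid receptor, read 0.63, 0.54, 0.76, 0.04 and 0.08 in normal colon and -0.53, -1.61, -1.45, -2.88 and -1.96 in tumours (-2.09 ± 0.30, adjusted p = 0.000144), and its second probe fell by 0.25 ± 0.07. Hsd11b2, the enzyme that shields this receptor from glucocorticoids, read 0.12, -0.06, 0.06, 0.61 and 0.65 against -0.98, -0.86, -2.34, -1.30 and -1.05 (-1.58 ± 0.26). Sgk1, a kinase that the receptor induces, read 0.20, 0.37, 1.13, -0.36 and 0.76 against -1.51, -3.67, -2.25, -3.88 and -3.77 (-3.44 ± 0.45, 10.8-fold lower). The tissues did not overlap for Nr3c2, Hsd11b2 or Sgk1. Of the epithelial sodium channel subunits, Scnn1g read 0.03, 2.15, 2.53, 1.54 and 1.35 against -0.67, -0.62, -0.16, -2.33 and -2.12 (-2.70 ± 0.54). The channel subunit gene Scnn1b fell by 2.28 ± 0.36. Scnn1a had -1.10 ± 0.33 (adjusted p = 0.0265), a call lost without rat 3, 8 or 10 (adjusted p = 0.0903, 0.0589 and 0.0697), and its second probe had -0.34 (adjusted p = 0.527). Slc9a3, a sodium and proton exchanger, was the member that rose. It read -2.51, -3.00, -2.26, -3.13 and -2.05 in normal colon and -1.46, -1.45, 0.06, -1.36 and -1.36 in tumours (1.48 ± 0.29), so that 4 of 5 tumours stayed well below the wild-type pool.

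Guanylin signalling, which sets chloride secretion, was lower at the ligand and at the receptor. Guca2a, which encodes guanylin, read -0.82, -0.89, -0.22, -1.21 and -0.20 in normal colon and -1.95, -2.70, -2.14, -3.72 and -3.82 in tumours (-2.20 ± 0.38). Gucy2c, its receptor, read 0.04, 0.09, 0.47, 0.32 and 0.05 against -0.79, -1.18, -1.70, -1.84 and -1.43 (-1.58 ± 0.19, adjusted p = 2.62e-05). Not every absorptive gene took part. Car1, a carbonic anhydrase of the colon, lay near -4 in both tissues, from -4.12 to -3.46 in normal colon and from -4.79 to -3.71 in tumours, and its difference of -0.41 did not pass (adjusted p = 0.128, and 0.0125 with rat as a fixed block). General markers of simple intestinal epithelium moved less. Of 19 measured, 6 fell and 0 rose (median -0.25; 1 rose with rat as a block), 1 fell without rat 3, rat 4 or rat 10, and 0 fell under median centring. Epcam and Vil1, which were well above background on all 12 arrays, did not pass, at -0.35 and -0.04. The Epcam probe was saturated on 4 of 7 normal and 2 of 5 tumour arrays, which narrows its difference. The mean log2 ratio over these 19 genes ran from 0.06 to 0.49 in normal colon and from -0.54 to 0.45 in tumours. Whether the share of epithelium took part in the fall of absorptive genes was not tested.

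Genes of the secretory lineages were lower as well. Of 16 measured goblet cell genes 13 fell and 0 rose (median -1.31), with 10 fallen without rat 8 and 7 under median centring. Spdef, the transcription factor that matures goblet cells, read 0.50, 0.47, 0.67, 0.20 and -0.02 in normal colon and -0.41, -1.40, -2.05, -3.12 and -2.03 in tumours (-2.17 ± 0.33). Klf4, another differentiation factor, fell by 2.0 ± 0.27, and its tumour value of 0.22 in rat 2 stood apart from -1.49 to -1.06 in the other rats. Products of goblet cells fell with their regulators. Tff3, a trefoil peptide, read -0.68, -0.70, -0.16, 0.36 and 0.34 against -2.10, -2.98, -2.01, -2.82 and -2.23 (-2.26 ± 0.30). Zg16, a lectin of the mucus layer, fell by 2.51 ± 0.40, Clca1, a mucus-processing protease, by 3.30 ± 0.56 and the disulfide isomerase gene Agr2 by 1.68 ± 0.28. The Clca1 probe was saturated on 5 of 7 normal arrays, so its fall may be understated. Muc2, the main secreted mucin, read 0.60, 0.14, 0.56, -0.14 and -0.10 in normal colon and 0.00, -0.25, -0.08, -1.72 and -1.49 in tumours. Its difference of -0.92 ± 0.32 did not pass (adjusted p = 0.0548) but did with rat as a fixed block (0.00384) or lot as a block (0.00116), and the tumours of rats 8 and 10 were far lower than those of rats 2, 3 and 4.

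Of 16 measured enteroendocrine genes 10 fell, 1 rose and 5 did not pass (median -0.81), and 6 fell without rat 8. Pyy, the appetite hormone of distal colon, read -0.27, -0.32, -0.53, -0.02 and -0.48 in normal colon and -1.78, -2.42, -2.81, -4.00 and -2.92 in tumours (-2.46 ± 0.31). Gcg, which encodes glucagon-like peptides, read -0.51, -0.72, -0.92, -0.19 and -0.10 against -1.43, -2.08, -2.33, -2.60 and -1.67 (-1.53 ± 0.27). The granule protein gene Chga fell by 1.96 ± 0.34 and had -0.90 on its second probe (adjusted p = 0.0552). Neither hormone overlapped between the tissues. Tph1, the serotonin-forming enzyme of enterochromaffin cells, was the member that rose, by 0.80 ± 0.27 with overlapping groups. It did not pass without rat 3, 4 or 10 (adjusted p = 0.16, 0.0969 and 0.122), and its second probe had 0.38 (0.0864).

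**Figure D4:**
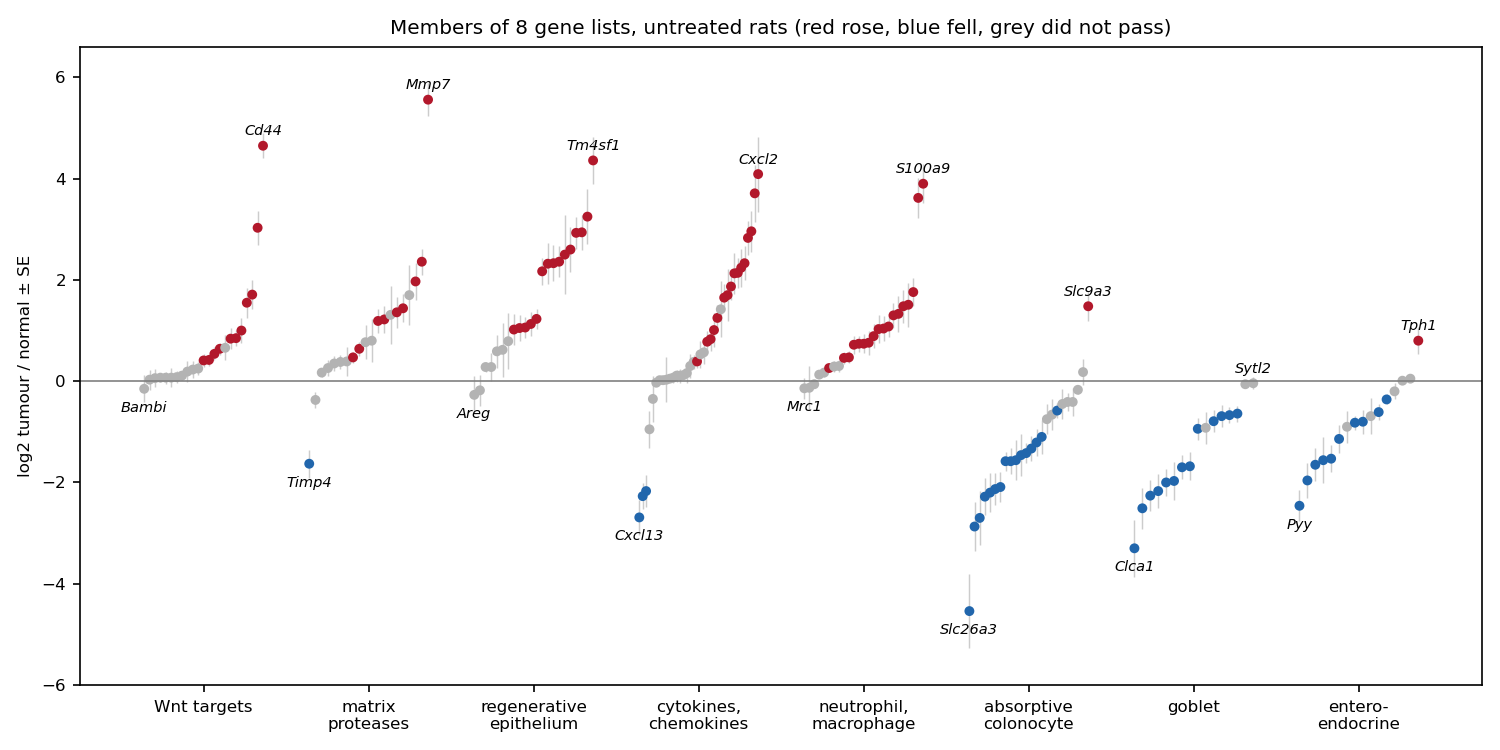
Log2 tumour over normal ± standard error of every measured member of 8 gene lists, ordered within each list, for the 5 untreated rats; red members rose, blue fell and grey did not pass. The protease, regenerative and chemokine lists lie mostly above 0 and the absorptive, goblet and enteroendocrine lists mostly below it, with Slc9a3 and Tph1 as the risen members of theirs.

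Of 12 measured antimicrobial genes, 5 rose, 1 fell and 6 did not pass (median 1.01, and 0.43 without rat 8). Besides Defa6, Lyz2, a lysozyme of macrophages and Paneth cells, read -2.35, -2.69, -2.06, -1.76 and -1.02 in normal colon and -0.20, 0.16, 0.97, 1.48 and 1.01 in tumours (2.66 ± 0.31, 6.32-fold). Camp, the cathelicidin peptide, rose by 2.0 ± 0.31 to between -0.33 and 1.38. Both started below the wild-type pool and ended near or above it. Pla2g2a, a secreted phospholipase that kills bacteria, was saturated on every tumour array, so its tumour level is a lower bound; the measured ratios gave a difference of 1.94 ± 0.32. Nos2, the inducible nitric oxide synthase, rose by 1.27 ± 0.31. Pigr, which carries IgA across the epithelium, fell by 1.20 ± 0.30. Reg3b, a lectin induced in injured epithelium, varied widely between rats: its tumours read -1.15, -4.16, -3.76, 3.96 and -4.22, with rat 8 alone above the pool (1.44 ± 1.11, adjusted p = 0.446). The siderophore-binding gene Lcn2 had 0.09 ± 0.08 and did not pass (adjusted p = 0.528).

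In arginine and polyamine metabolism the urea cycle enzyme genes Arg1 and Ass1 stood out. Of 19 measured, 5 rose, 1 fell and 13 did not pass, with a median of 0.06; without rat 10, 2 rose. Arg1, which splits arginine to ornithine and urea, read -0.06, -0.17, -0.43, 0.20 and 0.33 in normal colon and 3.21, 3.67, 4.76, 5.93 and 5.03 in tumours (4.55 ± 0.42, adjusted p = 1.91e-06). Ass1, which makes the precursor of arginine, read -2.05, -2.95, -1.72, -3.18 and -1.17 against 1.64, 1.46, 2.93, 2.50 and 1.95 (4.31 ± 0.41). The tissues did not overlap for Arg1 or Ass1. Slc7a1, the arginine importer, had 1.33 ± 0.37 and did not pass without rat 4 or rat 10 (adjusted p = 0.0537 and 0.0986). The second Slc7a1 probe had 0.24 (adjusted p = 0.22). Aldh18a1, which makes proline and ornithine precursors from glutamate, fell by 1.10 ± 0.17, and Odc1, the first enzyme of polyamine synthesis and a Myc target, had -0.15 and did not pass (adjusted p = 0.728).

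Chemokines that attract neutrophils were among the widest increases. Among 36 measured members 16 rose and 3 fell (median 0.46), 17 missed the threshold, and 11 rose without rat 8. The promoters of Cxcl1 and Cxcl2 are printed because both hold repeats of an NF-kB motif, GGG and TTCC with any 3 letters between them, close to the start. They are RefSeq GRCr8 sequences on the minus strand, Cxcl1 at chr14:17479272-17479571 and Cxcl2 at chr14:17467206-17467505, read in the direction of the gene with matches on either strand in capitals.
Cxcl1: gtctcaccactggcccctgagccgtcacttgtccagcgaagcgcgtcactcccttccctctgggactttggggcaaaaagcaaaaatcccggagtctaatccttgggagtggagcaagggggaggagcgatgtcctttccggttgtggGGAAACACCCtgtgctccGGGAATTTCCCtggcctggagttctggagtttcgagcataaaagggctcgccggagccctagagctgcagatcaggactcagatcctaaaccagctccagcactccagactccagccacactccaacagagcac
Cxcl2: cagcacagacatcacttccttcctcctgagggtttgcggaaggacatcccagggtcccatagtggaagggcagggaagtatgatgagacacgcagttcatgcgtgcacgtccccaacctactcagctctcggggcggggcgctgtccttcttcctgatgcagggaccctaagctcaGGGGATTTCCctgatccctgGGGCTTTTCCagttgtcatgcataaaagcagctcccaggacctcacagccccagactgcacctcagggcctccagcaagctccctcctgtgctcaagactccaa
Cxcl1 holds 3 matches, of which 2 overlap on opposite strands, and Cxcl2 holds 2. Among all 27457 promoters 5.36% hold the letters at least once.

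Cxcl1 read 0.27, 0.24, 0.20, 1.06 and 0.17 in normal colon and 1.65, 3.80, 4.58, 5.13 and 5.33 in tumours (3.71 ± 0.56, 13.1-fold). Cxcl2 read 0.41, 0.54, 0.27, 2.30 and 0.26 against 1.80, 4.72, 5.12, 6.39 and 6.17 (4.09 ± 0.74, 17.0-fold, adjusted p = 0.000913). The groups overlapped for Cxcl2 because the normal colon of rat 8 was above the tumour of rat 2, although each tumour was above the normal colon of its own rat. The related chemokine genes Cxcl3 and Cxcl6 rose by 2.83 ± 0.33 and 2.24 ± 0.38. Il1a, an alarm cytokine of epithelium and macrophages, was at 0.02 to 0.12 in normal colon and at 1.54, 2.51, 3.31, 4.01 and 3.80 in tumours (2.96 ± 0.41, 7.76-fold). Il1b rose by 2.14 ± 0.30, and its antagonist gene Il1rn by 1.87 ± 0.26, which turned to -0.21 with arrays scaled to equal spread. Ccl20, which attracts dendritic and Th17 cells, rose by 2.13 ± 0.40, and the interferon-induced chemokine gene Cxcl11 by 2.33 ± 0.34. Tnf had 0.38 (adjusted p = 0.0502, and 0.0288 with rat as a fixed block) and Ifng, a T cell cytokine, 0.02 (adjusted p = 0.834). The 3 that fell are made by epithelium or by lymphoid follicles. Cxcl13, which draws B cells to follicles, read 0.63, 0.56, 0.20, 0.83 and 0.08 in normal colon and -1.05, -2.85, -2.56, -2.51 and -2.16 in tumours (-2.69 ± 0.34). Il18, an epithelial cytokine, fell by 2.27 ± 0.26 and Ccl28, the chemokine of mucosal plasma cells, by 2.17 ± 0.31.

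Markers of neutrophils and macrophages were higher in the same tumours. Of 25 measured, 18 rose, 0 fell and 7 did not pass (median 0.74); without rat 8, 9 rose. The mean log2 ratio over these 25 genes ran from -0.37 to -0.09 in normal colon and from 0.31 to 1.15 in tumours, and no tumour overlapped a normal sample. S100a9, an alarmin of neutrophils, read 0.16, -0.05, 0.06, 1.82 and 0.35 in normal colon and 3.45, 3.63, 4.28, 5.29 and 5.22 in tumours (3.90 ± 0.39, adjusted p = 3.86e-06). Tyrobp, an adaptor of myeloid receptors, read -1.14, -1.43, -1.39, -0.65 and -1.0 against 0.07, 0.31, 0.72, 1.09 and 1.01 (1.76 ± 0.28), and 0.12 ± 0.09 on its dimmer probe. The macrophage markers Cd68 and Aif1 rose by 1.03 ± 0.28 and 1.51 ± 0.43, and neither passed without rat 8 (adjusted p = 0.0814 and 0.0656) or rat 10 (0.0522 and 0.0547). Cd14 had -0.13 and did not pass. The part that these cells had in the rise of chemokine and cytokine genes was not tested.

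Lymphocytes and mast cells gave little change. Of 21 measured markers of T, B, plasma and NK cells 1 rose and 2 fell (median 0.07), and 0 fell without rat 3, 4, 8 or 10. That is 14.3% called, against 18.0% of all features. Of 7 mast cell markers 0 passed in limma (median -0.08), and 0 had an unadjusted p under 0.05. Cd2, a T cell adhesion receptor, rose by 0.63 ± 0.13 from values of -0.11 to 0.00 and was well above background on 3 of 7 normal arrays. The members that fell were Gzma, by 1.30 ± 0.40 (adjusted p = 0.0306), and Gzmb, by 1.27 ± 0.37 (0.024). With arrays scaled to equal spread they had 0.26 and 0.14. Genes of antigen presentation and the interferon response were higher, with 11 of 24 risen and 0 fallen (median 0.65), 6 risen without rat 8 and 2 risen under median centring. RT1-Bb, an MHC class II chain, read -0.86, -1.29, -1.11, -1.02 and -1.43 in normal colon and 0.29, 0.48, 0.88, 0.40 and 0.81 in tumours (1.71 ± 0.26). Cd74, the invariant chain of class II, rose by 1.22 ± 0.26 and RT1-Db1 by 1.33 ± 0.25. The class II genes reached the level of the wild-type pool or passed it in most tumours, whereas B2m and Tap1 of class I presentation, at -0.40 and -0.37, did not pass.

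Of 23 fibroblast and matrix genes 7 rose and 0 fell (median 0.64), 5 rose without rat 4 or rat 8, and 1 rose under median centring. Their mean log2 ratio ran from -2.14 to -0.97 in normal colon and from -1.38 to -0.35 in tumours. Dcn, the proteoglycan decorin, read -2.70, -3.63, -2.43, -3.92 and -1.58 in normal colon and -0.48, -1.05, 0.46, 0.66 and 1.28 in tumours (3.03 ± 0.44, 8.15-fold). Fn1, which encodes fibronectin, rose by 1.54 ± 0.28 and Col1a2 and Col3a1, of fibrillar collagen, by 1.47 ± 0.32 and 1.38 ± 0.35, while the second Col1a2 probe had 0.37 ± 0.35 (adjusted p = 0.552). Col1a1 rose by 1.49 ± 0.44 on the probe that stands for it, did not pass without rat 4 or rat 8 (adjusted p = 0.0752 and 0.0848), and had 0.35 and 0.16 on its other probes.

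Smooth muscle genes went both ways. Of 15 measured, 6 rose and 2 fell (median 0.31). Without Cald1, which was well above background on no normal array, 6 of 14 rose and 2 fell (median 0.34). Tpm2, a muscle tropomyosin, read -4.57, -4.74, -4.24, -4.81 and -4.02 in normal colon and -1.50, -2.61, -1.54, -2.57 and -2.16 in tumours (2.40 ± 0.43). Its other probes had 1.63 (adjusted p = 0.015) and 0.84 (0.305). Des, the intermediate filament of muscle, went from between -1.73 and -1.35 to -1.91, -3.75, -3.99, -2.63 and -3.53 (-1.62 ± 0.36), a fall that turned to 0.73 with arrays scaled to equal spread. The mean over the list was below the pool in both tissues, from -2.14 to -1.18 in normal colon and from -1.48 to -0.71 in tumours. Among 15 endothelial markers 2 rose (13.3% called against 18.0% of all features), Eng by 0.23 and Flt1 by 0.38. The second Flt1 probe had 0.14 (adjusted p = 0.245). In this list 0 rose without rat 3 or rat 10, while 4 rose with rat as a block. Without Lyve1 and Tek, each well above background in 1 tissue only, 2 of 13 rose. Of 16 markers of enteric neurons and glia 0 passed in limma (median -0.18), and 2 had an unadjusted p under 0.05.

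Genes of fetal-like and regenerative epithelium, a programme seen after injury and in some adenomas, had the highest median of the 30 lists. Of 22 measured, 15 rose, 0 fell and 7 did not pass (median 1.18), 13 rose without rat 4, 8 or 10 and 6 under median centring. Among untreated rats Il1rl1 was well above background in tumours only, so it may have passed the filter through the tissue where it was high. Without it 14 of 21 rose (median 1.13). Tnfrsf12a, the receptor of TWEAK, read -0.44, 0.16, 0.08, -0.87 and -0.09 in normal colon and 2.19, 2.44, 3.09, 3.08 and 2.68 in tumours (2.93 ± 0.31, 7.62-fold). It separated all tumours from all normal samples. Clu, a secreted chaperone of regenerating crypts, read -1.87, -2.63, -1.41, -2.48 and -0.57 against -0.42, -0.01, 0.84, 1.41 and 0.82 (2.32 ± 0.40). Anxa3 rose by 2.17 ± 0.27 and the tissue factor gene F3 by 2.36 ± 0.31. Il1rl1, the receptor of interleukin 33, was not well above background on any normal array. It read 0.50, 1.30, 3.36, 3.67 and 3.35 in tumours, and did not pass without rat 3, 4, 8 or 10 (adjusted p = 0.052, 0.115, 0.156 and 0.114). Areg and Ereg, ligands of the EGF receptor, had -0.27 and 0.28 and did not pass.

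Targets of the YAP and TEAD factors were part of this list. Ccn2 read -1.07, -1.77, -0.51, -1.98 and -0.29 in normal colon and 0.42, 0.24, 2.64, 1.72 and 2.38 in tumours (2.60 ± 0.44, 6.08-fold). Ccn1 read -1.18, -1.33, -0.57, -0.86 and 0.34 against 1.38, 2.27, 3.67, 3.40 and 1.90 (3.25 ± 0.54, 9.48-fold). The tumour of rat 4 was the highest for both. The promoter of Ccn2 (RefSeq GRCr8, minus strand, chr1:22624565-22624864, read in the direction of the gene) is printed because it holds the TEAD letters CATTCC 3 times, marked in capitals on either strand, against 13.9% of all promoters that hold them at least once.
Ccn2: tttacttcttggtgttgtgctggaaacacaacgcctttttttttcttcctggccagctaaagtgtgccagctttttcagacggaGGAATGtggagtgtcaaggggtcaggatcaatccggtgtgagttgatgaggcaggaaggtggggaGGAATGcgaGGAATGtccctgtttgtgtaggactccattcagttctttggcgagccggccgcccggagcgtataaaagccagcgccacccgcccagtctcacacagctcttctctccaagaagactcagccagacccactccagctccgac

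Squamous and urothelial markers, which show whether anal or other lining entered a sample, were mostly at the level of the pool. Of 18 measured, 3 rose and 0 fell (median -0.11), 16.7% called against 18.0% of all features. The risen members were Lypd3, at 2.21, 2.38, 3.32, 2.79 and 2.25 in tumours against -0.25 to 0.56 (2.46 ± 0.36), Sprr1a (2.85 ± 0.59) and Krt15 (1.93 ± 0.62). In the normal colon of rat 8 Sprr1a read 3.69, against 0.07 to 0.28 in the other 4 rats, and the mean log2 ratio over the 18 markers was highest there, at 1.38. The lowest mean of a normal sample was -0.30, and tumours ran from 0.19 to 0.51. Krt15 did not pass without rat 3, 4 or 8 (adjusted p = 0.114, 0.129 and 0.0892). Dsg1, Tp63 and Dsc3 were well above background on no tumour array. Without them 3 of 15 rose (median -0.11).

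Of 21 glycolysis and hypoxia genes 5 rose and 2 fell (median 0.28), and 0 rose under median centring, while 8 rose and 5 fell with rat as a block. Pgk1, phosphoglycerate kinase, read 0.23, 0.36, 0.18, -0.17 and -0.10 in normal colon and 1.80, 1.77, 2.04, 1.54 and 1.09 in tumours (1.55 ± 0.17, adjusted p = 1.03e-05). Slc16a3, the lactate exporter, read 0.67, 0.73, 0.98, -0.29 and 0.81 against 2.88, 2.71, 3.32, 2.83 and 2.28 (2.23 ± 0.30), the opposite of the butyrate importer gene Slc16a1. Of 20 fatty acid oxidation genes 7 fell and 0 rose (median -0.41), 4 fell without rat 3, 8 or 10, and 0 fell under median centring. With arrays scaled to equal spread the list median turned to 0.41. Acadm, the medium-chain dehydrogenase, fell by 1.06 ± 0.27 with overlapping groups, and Fabp2, an intestinal fatty acid carrier, was already at -3.97 to -3.47 in normal colon and lay at -5.59 to -4.07 in tumours, a fall that turned to 3.46 with arrays scaled to equal spread.

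Of 29 measured xenobiotic, retinoid and sialic acid genes, 11 fell, 4 rose and 14 did not pass (median -0.63), and without rat 8, 2 rose. Without Maob, which was well above background on no tumour array, 11 of 28 fell and 4 rose (median -0.63). The retinoic acid-forming enzymes went opposite ways. Aldh1a1 read -0.91, 0.42, 0.72, -0.41 and -0.50 in normal colon and -2.38, -3.41, -4.26, -4.01 and -3.30 in tumours (-3.34 ± 0.44, 10.1-fold lower). Aldh1a3 read 0.24, 0.61, 0.30, 0.28 and 0.02 against 2.26, 2.51, 3.02, 3.71 and 3.45 (2.70 ± 0.23, 6.50-fold higher, adjusted p = 8.53e-07). Nr1i2, the pregnane receptor that induces detoxifying enzymes, fell by 0.91 ± 0.15, the sulfotransferase gene Sult1a1 by 1.87 ± 0.31 and the glutathione transferase gene Gstm1 by 1.45 ± 0.27, whereas the quinone reductase gene Nqo1 rose by 1.29 ± 0.28.

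In the prostaglandin and leukotriene list 4 of 21 rose and 4 fell (median -0.02), and 1 rose without the raised arrays or without rat 8 or rat 10. Hpgd, the enzyme that breaks down prostaglandin E2, read -1.24, -1.25, -1.02, -1.74 and -1.22 in normal colon and -2.88, -3.92, -4.02, -5.49 and -5.07 in tumours (-2.98 ± 0.40, 7.89-fold lower). Ptgs2, the inducible cyclooxygenase, read 0.28, 0.24, 0.14, 0.09 and 0.01 against 0.14, 0.67, 1.40, 0.91 and 1.23 (0.72 ± 0.25, adjusted p = 0.0491). The breakdown enzyme thus had the wider difference, and Ptgs2 did not pass without rat 3, 4, 8 or 10 (adjusted p = 0.0831, 0.187, 0.158 and 0.196). Alox12, a lipoxygenase, rose by 1.64 ± 0.27.

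Of 31 cell cycle and DNA replication genes 4 rose and 2 fell (median 0.39), 19.4% called against 18.0% of all features. Of this list 2 rose without rat 3, without rat 10 or without the raised arrays. Under median centring 0 passed, while 9 rose and 2 fell with rat as a block. Rrm2, the small subunit of ribonucleotide reductase, read 0.02, -0.38, -0.36, -0.26 and -0.38 in normal colon and 1.10, 0.99, 0.90, 1.03 and 1.24 in tumours (1.32 ± 0.25). Cdkn1b, the inhibitor p27, fell by 0.96 ± 0.22, which turned to 0.61 with arrays scaled to equal spread. Mki67, the proliferation marker, had 0.04 and did not pass (adjusted p = 0.971). Ribosome biogenesis genes, many of them Myc targets, were shifted more evenly: 10 of 21 rose, 0 fell (median 0.72), 7 rose without rat 3 or rat 8, 18 rose with rat as a block, and all 21 differences were above 0. Bop1 and Nop56 rose by 0.93 ± 0.15 and 0.98 ± 0.18. With arrays centred on their medians, 0 ribosome biogenesis genes passed.

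Signals that pattern the crypt were mixed. Of 28 BMP, hedgehog and TGF-beta genes 6 rose and 6 fell (median 0.16), and 4 rose without rat 8. Under median centring 1 rose and 0 fell. Bmp2, a differentiation signal of the crypt surface, read 0.69, 0.79, 1.32, -0.35 and 0.51 in normal colon and -0.32, -0.88, -0.29, -1.97 and -2.13 in tumours (-1.71 ± 0.39). Chrd, which encodes the BMP antagonist chordin, read -0.06, -0.39, 0.12, -0.02 and -0.14 against 0.79, 1.12, 1.22, 2.13 and 1.18 (1.39 ± 0.20). The BMP response genes did not go 1 way, with Id3 up by 1.23 ± 0.20 and Id4 at -1.56 ± 0.28. Of 17 Notch genes 2 rose and 2 fell (median -0.01, 23.5% called against 18.0% of all features). Among these, the ligand gene Dll1 fell by 1.13 ± 0.22 and the target gene Hes1 by 0.65 ± 0.12, while the ligand gene Jag2 rose by 0.91 ± 0.22. Of 22 EGF, HGF and IGF genes 4 rose and 3 fell (median 0.17), and 5 fell with rat as a block. Egf itself read 0.79, 0.46, 0.56, 0.35 and -0.25 against -0.26, -1.25, -1.20, -2.24 and -1.98 (-1.77 ± 0.30), and the binding protein gene Igfbp7 rose by 2.17 ± 0.39.

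Circadian clock genes fell in 7 of 14 cases and rose in 0 (median -0.39); 4 fell without rat 3. Per2, a core repressor of the clock, read 1.20, 0.87, 1.09, 1.54 and 0.28 in normal colon and 0.10, -0.10, -1.09, -1.05 and -0.59 in tumours (-1.54 ± 0.26). Dbp, a clock output factor, fell by 1.68 ± 0.39 with rats as far apart as -1.38 and 1.51 in normal colon. The hour of dissection of each rat is not used here, and the fit had no term for the rat; with rat as a block 8 fell.

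The rats differed in the size of the tumour profile. Differences of more than 2-fold upward and downward were seen in 382 and 334 features in rat 2, 685 and 661 in rat 3, 841 and 1218 in rat 4, 1461 and 1461 in rat 8, and 1454 and 1733 in rat 10. Rats 8 and 10 of lot 2 were thus above the 3 rats of lot 1. Lot, scan day and rat cannot be told apart here. The tumour array of rat 2 and the normal colon array of rat 10 had a narrow spread of ratios, as given above. Within lot 1 alone 3211 features passed and within lot 2 alone 2428, of which 2554 and 2080 were among the 4758.

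The tumour minus normal difference was then compared between the 5 untreated rats and the 5 rats given DSS, which share no animal. The difference itself passed for 661 features (2.50%), and 416 of these were also called in untreated rats. Without the 3 raised arrays 314 passed, and without rat 4 336, without rat 8 364 and without rat 3 416 passed. Of 188 genes followed here 35 passed, and for 34 of them the tumour effect was the wider in untreated rats. For 35 of the 35 the mean of normal colon differed more between untreated and DSS rats than the mean of tumours. Many of the 188 genes were chosen by size or p in untreated rats. That choice favours a wide effect there, so these counts are not a test. Over all features the difference was above 0 for 441 of the 661 and below 0 for 220. Mmp7 had a mean of -0.29 in normal colon of untreated rats and of 3.40 ± 0.70 (SD, n = 5 rats) in that of DSS rats, while tumours had 5.26 and 5.35 (difference of effects 3.61 ± 0.46, adjusted p = 0.000449). Cxcl2 had 0.76 against 5.63 ± 0.93 in normal colon, and 4.84 against 4.19 in tumours (5.52 ± 1.05). Cmahp had -0.42 against -4.75 ± 0.49 in normal colon, and -5.38 against -5.35 in tumours (-4.36 ± 0.45). The normal colon of DSS rats thus lay between the other normal colon and the tumours for Mmp7 and Cmahp, and above the tumours for Cxcl2.

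For other wide changes the difference between treatments did not pass, which does not show that the effects were alike. It was -0.71 ± 1.03 for Slc26a3, 0.41 ± 0.59 for Armh4, 1.15 ± 0.66 for Tm4sf1 and -0.01 ± 0.80 for Clca1, whose probe was saturated as given above. It was 1.64 ± 0.47 for Gbp2 (adjusted p = 0.0762) and 2.01 ± 0.58 for Ass1 (0.0786), which were wider but missed the threshold. Squamous markers belong beside this comparison: 14 of 18 passed it, and their median tumour effect was -2.76 in DSS rats against -0.11 in untreated rats. The filter counted DSS arrays too, so a marker bright only in the normal colon of DSS rats could enter the list. Dsg1, Tp63 and Dsc3 were well above background on no tumour array of untreated rats. The count of 14 is thus not a test. The part of squamous lining in the normal colon of DSS rats in these differences was not tested.

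**Figure D5:**
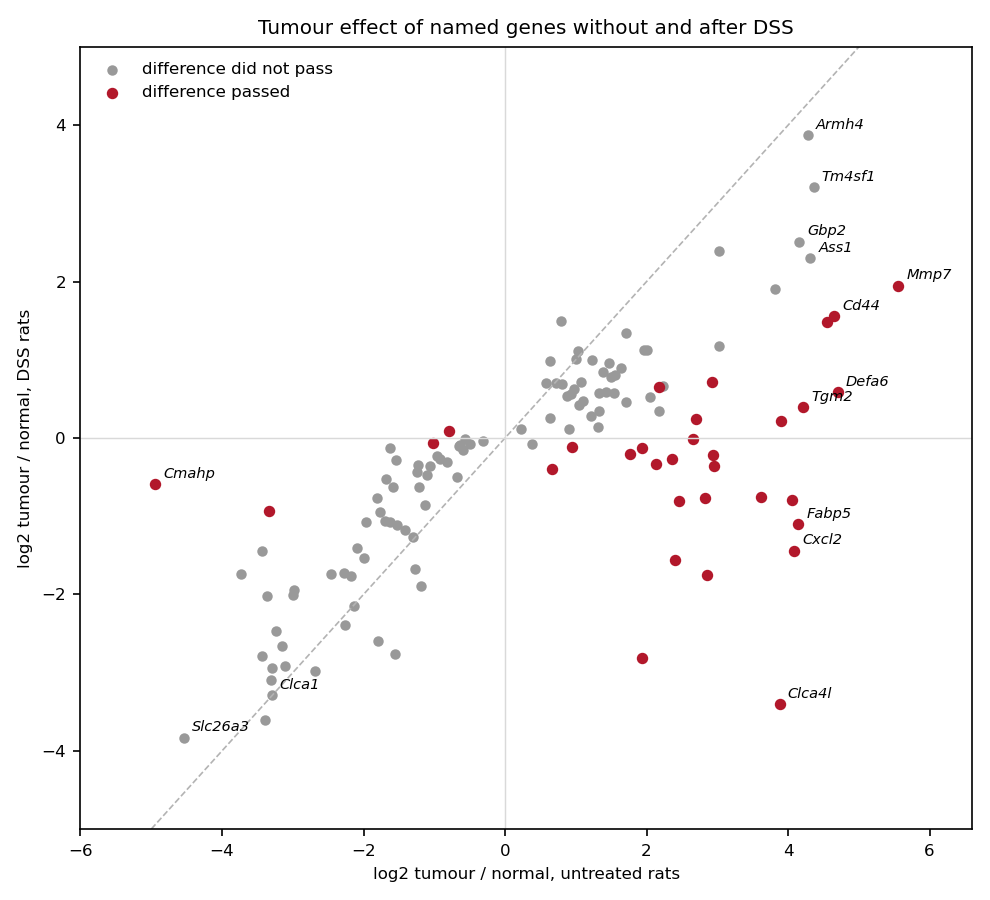
Log2 tumour over normal of the named genes in untreated rats (horizontal) and in DSS rats (vertical), 5 rats in each; red genes passed the test of the difference, and the dashed line marks equal effects. Among the red genes Clca4l has the lowest effect in DSS rats, -3.40 against 3.88 in untreated rats, while Slc26a3 and Armh4 lie close to the line.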

How the data were processed

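The authors hybridized Cy3-labelled sample RNA with a Cy5-labelled pool of wild-type rat colon to 2-colour Agilent arrays, without dye swaps per the labels. The deposited spot signals are intensities, and per the file headers the software was Feature Extraction 9.1.3.1; the deposited log ratio is log10 of Cy5 over Cy3. The submitters' processing notes also list Partek, without saying what it did.

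Log2 ratios and folds were recomputed from the deposited intensities with limma 3.58.1 (R 4.3.3, with statmod at 1.5.0): normexp with an offset of 50, then loess within arrays, without control and non-uniform spots. Probes well above background on at least 5 of 24 arrays were kept, the brightest probe stood for a gene, and 26436 features remained, 13971 with a symbol. Of 41012 probes, 21708 received a current gene name from RefSeq. Repeat arrays were averaged, and 1 limma model with a mean per group was fitted to 20 samples. Two-sided p-values were adjusted by Benjamini-Hochberg over the 26436 features with 0.05 as threshold, and the code was tested on simulated data. The difference between the tumour effects of untreated and DSS rats was a contrast of the same model. The number of rats, 5 per group, limits the precision.

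The genes named were the 15 largest changes in each direction with the same sign in 5 rats, and members of 30 functional lists by size or p with those that did not pass. Results of some named genes are not reported here. The members and lists were chosen with earlier results of these data known. Rat numbers pair the tissues because both came from 1 animal. After removal of group means, tissues of 1 rat correlated at 0.08 to 0.554, and 2 of 5 normal samples correlated best with their own tumour. Lots and slides were read from slide identifiers and scan days from file headers. Alternatives changed the background offset, normalization, filter, probe choice, blocks, lots and samples. List counts without members measured in 1 tissue only were added after seeing the data.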

Additional observations from a re-analysis of the deposited data

Results flagged for a closer look

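In 376 groups of 5 rats, 17 held 1 sample whose gap to the nearest other exceeded Dixon's critical value of 0.71 of the range, a rule that by chance picks about 1 in 20 groups. The values below are log2 ratios to the wild-type pool. The normal colon of rat 8 stood apart with Cxcl2 2.30, S100a9 1.82, Clca4l 1.39, Nos2 0.64, Slc7a1 1.36, Cxcl1 1.06, Sprr1a 3.69 and Slc16a3 -0.29. The tumour of rat 4 stood apart with Slc9a3 0.06. The tumour of rat 2 stood apart with Klf4 0.22, Muc1 -0.34 and Id4 -1.02. The normal colon of rat 3 stood apart with Cd68 -0.77. The normal colon of rat 10 stood apart with Krt20 1.45, Gstm1 -0.34 and Cdkn1b -1.03. The tumour of rat 8 stood apart with Nqo1 1.56.

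The tumour effect differed between untreated and DSS rats for 35 of 188 genes in limma, and for 34 it was wider in untreated rats, while for 21 the effects had opposite signs. Many of these genes were chosen by their change in untreated rats, which favours a wide effect there. The differences of log2 effects, untreated minus DSS, follow. Of the genes higher in tumours they were Mmp7 3.61, Defa6 4.11, Cd44 3.09, Arg1 3.07, Tgm2 3.81, Fabp5 5.24, Cxcl2 5.52, Prss22 4.85, S100a9 3.69, Clca4l 7.28, Plat 2.63, Lyz2 2.67, Pla2g2a 2.07, Cxcl1 4.00, Cxcl3 3.60, Cxcl6 2.52, Il1a 3.31, Il1b 2.47, Il1rn 1.76, S100a8 4.36, Tyrobp 1.97, Tpm2 3.96, Tnfrsf12a 2.21, Anxa3 1.53, Lypd3 3.27, Sprr1a 4.60, Krt15 4.74, Aldh1a3 2.46, Nqo1 2.08, Tgfb1 1.05, Gpx2 2.21 and Noxo1 1.43. Of the genes lower in tumours they were Cmahp -4.36, Aldh1a1 -2.41 and Hsd11b2 -1.59. Squamous markers were high in the normal colon of DSS rats, and their part in these differences was not tested.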

How the results depend on the processing

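For tumour against normal colon the count of 4758 features became 903 with median centring in place of loess (348 or 38.5% of them higher, against 47.6% before; 881 were shared), 2369 with arrays scaled to equal spread (2073 shared) and 2428 within lot 2 alone. It ran from 2621 to 4971 with 1 rat left out, and was lowest without rat 8. The authors' processed signals, centred on the median, gave 5365, of which 39.1% were higher. With rat as a replicate block the count was 6571 as a fixed block and 6569 as a random block, which use the pairing of tissues by rat; with the fixed block Ctnnb1, Car1, Muc2, Timp1, Tnf and Duox2 also passed, and no other call among the 205 genes changed. For the difference between untreated and DSS rats the count of 661 became 187 with median centring, 1491 and 1665 with rat as a fixed or random replicate block, 1359 with lot as block, 314 without the 3 raised arrays and 209 without these and rat 4; the last 2 alternatives were added after seeing the data. It ran from 336 to 793 with 1 rat left out. Of 5124 pairs of a gene and a setting, over 205 genes and 25 settings, 4687 kept the side of the threshold. A further 391 lost the call, 39 gained it and 7 changed sign with a call before or after. Changes of sign without a call before or after are among the 4687. Car1, for example, had -0.41 and reached 4.94 in 1 setting. All 7 changed sign with arrays scaled to equal spread: Cdkn1b 0.61, Fabp2 3.46, Gzmb 0.14, Gzma 0.26, Cdx2 0.93, Des 0.73 and Il1rn -0.21. The cause of these changes was not tested. Of 188 called genes, 57 passed in all settings run. Probes near background give bounds or narrowed ratios.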

Other observations

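The genes of this and the next paragraph were chosen after their values were seen. Gpx2, a glutathione peroxidase of intestinal epithelium, read 0.10, -0.01, -0.12, 0.20 and -0.31 in normal colon and 3.24, 3.55, 3.95, 3.80 and 3.4 in tumours of rats 2, 3, 4, 8 and 10 (3.61 ± 0.31, 12.2-fold, adjusted p = 8.53e-07). The colonic NADPH oxidase gene Nox1 read -0.16, -0.24, -0.08, -0.45 and -0.06 against 0.93, 2.47, 1.27, 2.44 and 2.29 (2.08 ± 0.34), and its organizer gene Noxo1 rose by 2.29 ± 0.18. Tissues did not overlap for Gpx2, Nox1 or Noxo1. Duox2, a second oxidase of the epithelium, had 0.64 and did not pass (adjusted p = 0.306, and 0.00726 with rat as a fixed block).

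Chl1, a neural adhesion molecule, rose by 3.48 ± 0.44 and was well above background on 5 of 7 normal arrays. Cited1, a transcriptional coregulator, read 0.34, -0.30, 0.00, -0.42 and -0.04 in normal colon and 2.24, 3.04, 3.51, 4.14 and 4.15 in tumours (3.50 ± 0.39, 11.3-fold). Kallikrein genes fell, with differences of -3.29 for Klk1, -2.81 for Klk1c8, -2.06 for Klk1c9 and -2.05 for Klk1c2; they have near-identical copies, so which of them a probe reads is uncertain.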
